A study of Mus musculus with 4 samples.

Results

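Gas6, its receptors and the proteins by which phagocytes take up dying cells were followed through 4 stages of osteoclast formation in culture. The 8 genes were Gas6, Pros1, Axl, Mertk, Tyro3, Mfge8, Timd4 and Elmo1, out of 18193 genes named by at least 1 probe set that carries exactly 1 gene symbol. They were looked up by symbol, and the set was built around Gas6, which was chosen by its intensities on these arrays, dim in pre-osteoclasts between brighter values. Its low value in pre-osteoclasts is therefore not a result. The other genes belong to the same pathway. Together they had 13 probe sets, and a gene's values are those of its brightest probe set by mean log2 signal.

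RNA was hybridised to single-channel expression arrays, with 1 array per stage. All cultures came from marrow of C57BL/6 mice aged 8 to 10 weeks, no genetic change is named in the labels, and they do not say whether an RNA came from 1 animal or a pool. Bone marrow macrophages (BMM) were grown for 3 days in M-CSF, the macrophage growth factor, at 100 ng/ml. Pre-osteoclasts (pOC) were BMM kept for 2 days in M-CSF and RANKL, the cytokine that drives osteoclast formation, each at 100 ng/ml, and taken as mononuclear cells positive for TRAP, an enzyme used to stain osteoclasts. Mature osteoclasts had 2 more days in both factors, either on dentin, where they resorb the surface (mOCd), or on plastic (mOCp). The mature stages thus differ from pOC in time as well as in form, and all groups received M-CSF.

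A dying cell exposes the lipid phosphatidylserine on its outer face, and phagocytes recognise it directly or through soluble bridging proteins. Gas6 and protein S (Pros1) are vitamin K dependent bridges that join phosphatidylserine to receptor kinases of the TAM family. The family consists of Tyro3, Axl and Mertk, and Gas6 binds each of them. Mfge8 bridges phosphatidylserine to the integrins alpha v beta 3 and alpha v beta 5, Timd4 tethers phosphatidylserine at the cell surface, and Elmo1 works with Dock proteins inside the cell to activate the GTPase Rac for engulfment. In bone, Tyro3 on mouse osteoclasts has been described as a receptor through which Gas6 stimulates resorption.

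The values were linear signal intensities on arrays that all had a trimmed mean of 100.0. On each array the 50th percentile of the probe sets was used as a floor, at 12.7 in BMM, 14.5 in pOC, 15.8 in mOCd and 14.8 in mOCp, and lower values were set to it before a ratio was taken. The 75th percentile lay at 87.0 in BMM, 81.5 in pOC, 79.1 in mOCd and 77.8 in mOCp. A gene was called higher or lower for a ratio of 2-fold or more whose brighter value reached the 75th percentile of its array, and genes that meet this brightness condition are termed eligible. A ratio against a value under the floor is a lower bound, and none is given where both values lie under it. With 1 array per group there is no replicate and no test, so the values compare these arrays and not the conditions. As a guide to error, log2 ratios of probe sets for the same gene disagreed with an SD of 0.41 to 0.52, which leaves out the spread between animals and cultures. Of the osteoclast markers, 10 of 10 exceeded the floor in pOC, mOCd and mOCp, against 5 of 10 in BMM. Their summed intensity was 250.6 in BMM, 32519.8 in pOC, 51729.0 in mOCd and 50165.5 in mOCp. All 9 macrophage markers exceeded the floor in BMM, pOC and mOCp, with 8 of 9 in mOCd, a count that does not tell the stages apart.

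The 250 bases upstream of the start site are shown for 4 genes. Gas6 and Mfge8 were called higher in both mature cultures than in pOC. Mertk and Elmo1 were called lower in pOC than in BMM together with Gas6. Axl was called lower there too, but its window overlaps the listed span of the gene and is not shown. The sequences come from RefSeq (GRCm38.p6), which had an entry for all 8 genes, and are written 5′ to 3′ on the strand of the gene. Capitals mark matches on either strand to 1 of 6 motifs, which were AP-1 (TGANTCA), PU.1 (GAGGAA), the GC box (GGGCGG), a nuclear receptor site (AGGTCA), NFAT (TGGAAA) and a MAF site (TGCTGA). Gas6 lies at chr8:13465374-13494535 on the minus strand and its window at chr8:13494536-13494785. The Mertk window is chr2:128698665-128698914 on the plus strand, the Mfge8 window is chr7:79149061-79149310 on the minus strand, and the Elmo1 window is chr13:20090257-20090506 on the plus strand, the more upstream of 2 start sites listed for Elmo1.
Gas6: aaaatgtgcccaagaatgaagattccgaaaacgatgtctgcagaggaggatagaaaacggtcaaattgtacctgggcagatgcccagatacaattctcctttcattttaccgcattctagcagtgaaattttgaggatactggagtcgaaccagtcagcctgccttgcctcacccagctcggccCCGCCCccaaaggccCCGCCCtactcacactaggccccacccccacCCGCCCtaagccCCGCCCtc
Mfge8: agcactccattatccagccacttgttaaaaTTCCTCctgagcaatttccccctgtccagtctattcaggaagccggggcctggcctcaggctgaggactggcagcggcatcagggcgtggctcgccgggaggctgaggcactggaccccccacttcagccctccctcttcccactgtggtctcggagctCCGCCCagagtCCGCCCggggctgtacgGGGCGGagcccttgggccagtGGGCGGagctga
Mertk: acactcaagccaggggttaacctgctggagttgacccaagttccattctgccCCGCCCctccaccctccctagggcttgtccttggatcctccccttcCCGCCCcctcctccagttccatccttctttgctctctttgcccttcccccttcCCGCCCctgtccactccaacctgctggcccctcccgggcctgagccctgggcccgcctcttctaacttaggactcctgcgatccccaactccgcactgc
Elmo1: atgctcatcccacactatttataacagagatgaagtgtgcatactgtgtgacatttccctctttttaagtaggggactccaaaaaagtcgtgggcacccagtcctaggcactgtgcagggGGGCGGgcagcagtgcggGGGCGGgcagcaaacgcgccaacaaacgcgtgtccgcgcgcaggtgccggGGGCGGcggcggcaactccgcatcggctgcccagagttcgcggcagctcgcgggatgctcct

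Every capital run in the Gas6 window is a GC box, and the 4 matches begin at -66, -51, -20 and -8 from the start site. The Mfge8 window held 4 GC boxes, from -61 to -12, and a PU.1 match at -220. The Mertk window held 3 GC boxes, at -198, -152 and -99, and the Elmo1 window 3, at -130, -112 and -62. The Axl window, not shown, held a GC box at -10, a PU.1 match at -130 and an NFAT match at -246. Over 32851 mouse promoter windows of the same length, 32.7% held a GC box, 23.3% a PU.1 match, 18.6% an NFAT match, 16.1% a MAF site, 14.0% a nuclear receptor site and 6.75% an AP-1 match. PU.1 and NFAT are factors of the macrophage and osteoclast lineages, and a match says only that these letters are present. The GC share of the windows was 54.8% for Gas6, 65.2% for Mfge8, 63.6% for Mertk and 61.6% for Elmo1.

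Gas6, the ligand of all 3 TAM receptors, had its values at 739.8 in BMM, 88.4 in pOC, 1513.8 in mOCd and 1072.4 in mOCp. The pOC array stood alone at the low end, as Gas6 was chosen to do, and the order from low to high was pOC, BMM, mOCp and mOCd. BMM and mOCp, and mOCp and mOCd, differed by log2 ratios of 0.54 and 0.50, little more than the disagreement between probe sets. These values placed Gas6 at percentile 95.1 of the probe sets in BMM, 75.9 in pOC, 97.5 in mOCd and 96.4 in mOCp. A dimmer Gas6 probe set read 12.3 in BMM, 2.6 in pOC, 27.4 in mOCd and 10.1 in mOCp. It exceeded the floor in mOCd alone, so it gives no ratio between pOC and BMM.

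Pros1, the second ligand, read 78.1 in BMM, 20.2 in pOC, 44.1 in mOCd and 36.2 in mOCp. Its lowest value also lay in pOC and its highest in BMM, but no array brought it to the 75th percentile. It could therefore not be called in any comparison.

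Of the 3 TAM receptors, Axl and Mertk were brightest in BMM, and Tyro3 stayed near or under the floor. Axl, the TAM receptor that binds Gas6 most tightly, measured 121.2 in BMM, 13.1 in pOC, 14.3 in mOCd and 1.9 in mOCp. The BMM value was the only one above the floor, and the 3 others have no order among them. A further Axl probe set, whose name marks possible cross-hybridisation, lay between 0.2 and 5.4, under the floor on all 4 arrays.

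Mertk, the receptor best known for clearance of dying cells by macrophages, gave signals of 164.1 in BMM, 18.8 in pOC, 10.4 in mOCd and 44.1 in mOCp. BMM stood above the other 3 arrays, and the mOCd value lay under the floor. Mertk had 1 probe set.

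Tyro3 was measured at 6.2 in BMM, 14.7 in pOC, 3.1 in mOCd and 5.4 in mOCp, so the pOC value just exceeded the floor of 14.5. Its other probe set read 0.6 in BMM, 6.0 in pOC, 0.4 in mOCd and 9.2 in mOCp, all under the floor. At this signal no level of Tyro3 could be told from background on the BMM, mOCd and mOCp arrays.

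Mfge8 behaved unlike the TAM ligands, with its lowest intensity in BMM. It read 91.4 in BMM, 156.3 in pOC, 1057.6 in mOCd and 968.9 in mOCp. The mature cultures stood far above the earlier stages, and mOCd and mOCp lay close together. It stood at percentile 96.4 of probe sets in mOCd and 75.6 in BMM. Mfge8 had 1 probe set, of a kind that can read several transcripts of a gene.

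Timd4, the phosphatidylserine receptor, read 1.2 in BMM, 0.8 in pOC, 0.7 in mOCd and 7.5 in mOCp, under the floor on every array, and is the only one of the 8 genes counted as not measured. Elmo1, the engulfment adaptor, read 334.5 in BMM, 156.4 in pOC, 233.0 in mOCd and 174.6 in mOCp. All 4 Elmo1 values exceeded the 75th percentile, and pOC was lowest. A second Elmo1 probe set read 107.0 in BMM, 38.0 in pOC, 34.9 in mOCd and 44.2 in mOCp, again with BMM highest, and another lay between 8.0 and 14.4, under the floor throughout. In all, 7 of the 8 genes were above the floor somewhere, and 5 reached the 75th percentile of an array.

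**Figure D1:**
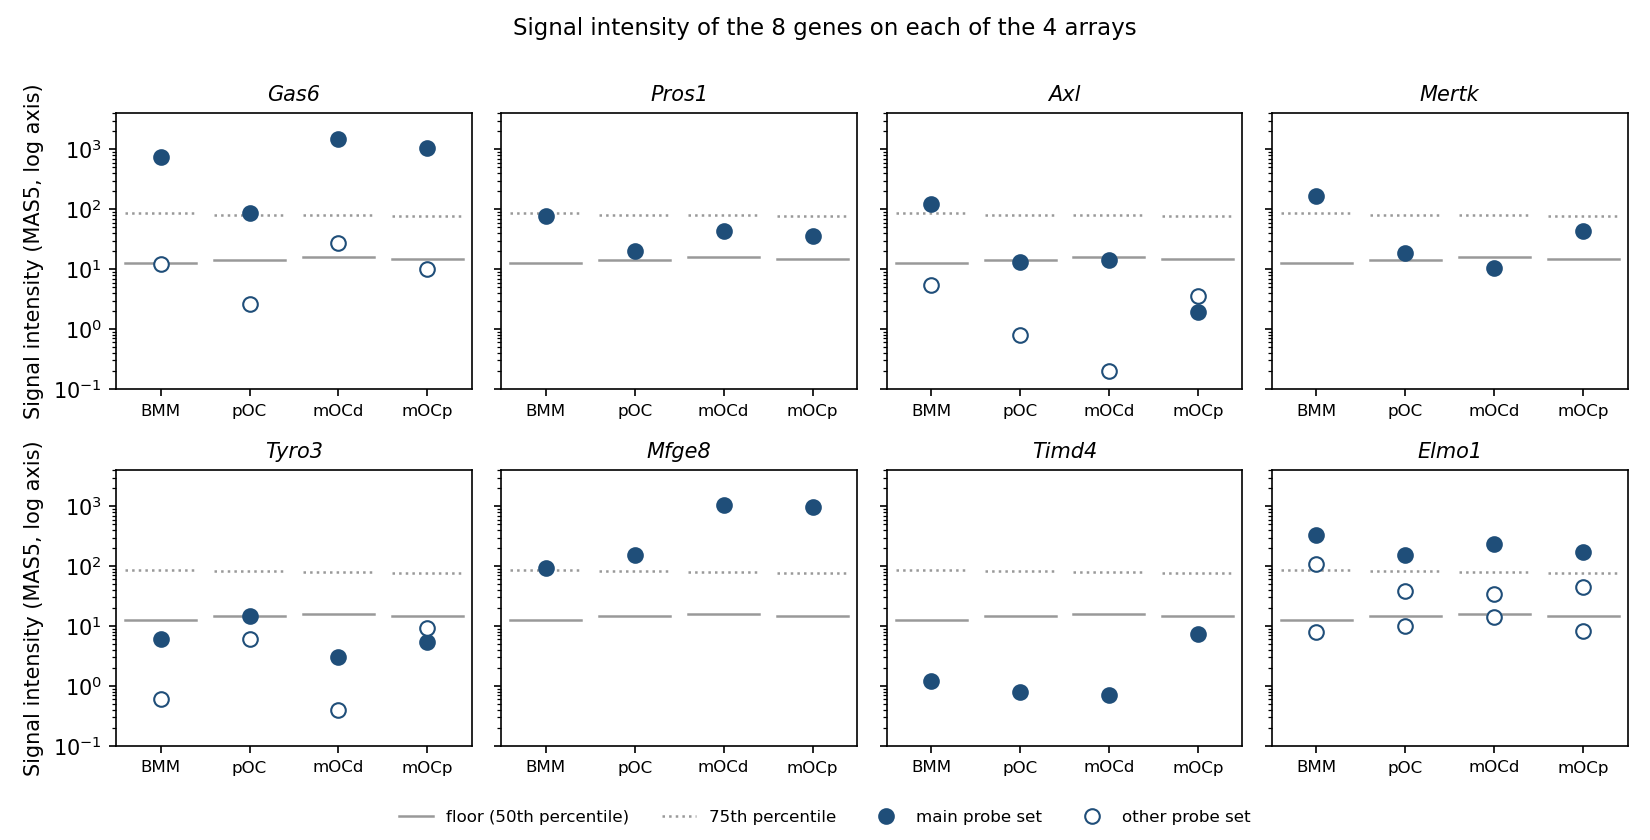
Signal intensity (log axis) of each of the 8 genes in BMM, pOC, mOCd and mOCp, with 1 array per stage. Filled points are the main probe set, open points any other, the solid line is the floor and the dotted line the 75th percentile of each array; Gas6 dips to 88.4 in pOC, Axl exceeds the floor in BMM alone, and Mfge8 reaches 1057.6 in mOCd and 968.9 in mOCp.

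Comparing pOC with BMM covers the first 2 days with RANKL. Over these days 4 of the 5 eligible genes were called lower and 0 higher. Against this, 13.2% of all 7256 eligible genes were called lower and 11.1% higher, and because the set was built on a low Gas6 value in pOC nothing is read from the count. Gas6 was 8.37-fold lower in pOC than in BMM (log2 ratio -3.07), which ranked 115 among the decreases of all eligible genes. Mertk was 8.73-fold lower (log2 ratio -3.13, rank 107). Axl was at least 8.36-fold lower, since its pOC value was under the floor. Elmo1 was 2.14-fold lower on its main probe set and 2.82-fold lower on the second.

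The genes not called were Pros1, at 20.2 in pOC against 78.1 in BMM (a ratio of 3.87-fold), Mfge8, at 156.3 in pOC against 91.4 in BMM (1.71-fold), and Tyro3. The median log2 ratio of the 7 genes with a ratio was -1.95, and that of all measured genes was 0.17. As with the count, nothing is read from this median. Macrophage markers moved with these genes: 6 of 9 were called lower in pOC, among them Fcgr1, an IgG receptor, and their summed intensity was 11778.7 in pOC and 21543.3 in BMM. Their part in the result was not tested. In bulk RNA, fewer cells of a type and less RNA per cell cannot be told apart. Under other scalings the calls over all genes, 809 higher and 956 lower here, were 589 higher and 1216 lower with a common median, and 1034 higher and 789 lower with spike-in controls. Gas6, Axl and Mertk stayed called lower under both, and Elmo1 lost its call with spike-in scaling. Averaging a gene's probe sets, of which the dimmer lay mostly under the floor for Gas6 and Axl, moved the log2 ratio of Gas6 to -1.44 and ended the calls of Axl and Elmo1.

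The next 2 days set the mature cultures against pOC. On dentin, Gas6 was 17.1-fold higher in mOCd than in pOC (log2 ratio 4.10), which ranked 7 among the increases of 7230 eligible genes. On plastic it was 12.1-fold higher in mOCp than in pOC (log2 ratio 3.60), with rank 13 of 7192. Averaging its probe sets lowered these log2 ratios to 2.51 and 1.82, and both stayed called. Both ratios rest on the pOC value by which Gas6 was chosen. The dimmer Gas6 probe set was at least 1.89-fold higher in mOCd than in pOC and gave no ratio for mOCp.

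Mfge8 was 6.77-fold higher in mOCd than in pOC (log2 ratio 2.76, rank 48). On plastic it was 6.20-fold higher in mOCp than in pOC (log2 ratio 2.63, rank 47). These were the only other calls: in each comparison 2 of 3 eligible genes were called higher and 0 lower. For mOCd against pOC the share of all eligible genes called higher was 10.8% and lower 12.3%, and for mOCp against pOC it was 8.8% and 11.4%. Gas6, chosen by its pOC value, is among the 2 called genes, so nothing is read from these counts.

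The remaining genes were not called. Pros1 read 44.1 in mOCd and 36.2 in mOCp, against 20.2 in pOC. Elmo1 read 233.0 in mOCd and 174.6 in mOCp, against 156.4 in pOC. Axl had no ratio in either comparison, because all 3 values lay under the floor, so no return of Axl towards its BMM level was seen in the mature cultures. Mertk read 10.4 in mOCd and 44.1 in mOCp, against 18.8 in pOC. The median log2 ratio of the 5 genes with a ratio was 1.13 for mOCd and 1.23 for mOCp, against 0.10 and 0.03 over all measured genes. Gas6 is among the 5 and was chosen by its pOC value, so nothing is read from these medians. Both comparisons use the same pOC array, so they are not independent of each other. The calls over all genes were 779 higher and 886 lower for mOCd against pOC, and spike-in scaling gave 443 higher and 1596 lower. For mOCp against pOC they were 633 higher and 820 lower, and spike-in scaling gave 284 higher and 1655 lower. Gas6 and Mfge8 were called higher under that scaling too.

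Between the surfaces, mOCd against mOCp, 0 of 3 eligible genes were called, where 2.15% of 6915 eligible genes were called higher and 2.55% lower. Gas6 read 1513.8 in mOCd and 1072.4 in mOCp, a ratio of 1.41-fold. Its log2 ratio of 0.50 was close to the disagreement between probe sets in this comparison, an SD of 0.44. Mfge8 differed by 1.09-fold, Pros1 by 1.22-fold and Elmo1 by 1.33-fold, all higher in mOCd by less than this SD on the log2 scale. The second Elmo1 probe set went the other way, at 34.9 in mOCd and 44.2 in mOCp. Mertk was the exception, at 10.4 in mOCd and 44.1 in mOCp, at least 2.79-fold lower in mOCd, but 44.1 lies under the 75th percentile of 77.8 and it was not called. The transferrin receptor control, whose log2 signal at the 3′ end less that at the 5′ end grows as RNA degrades, stood at 1.70 in mOCd and 0.84 in mOCp. It stood at 0.995 in BMM and 1.01 in pOC, so mOCd was also higher than those arrays, with which it is compared elsewhere. The same difference was -0.34 in mOCd and -0.29 in mOCp for the Gapdh control, and 0.28 in mOCd and 0.20 in mOCp for the actin control. Their part in these values was not tested. Over all genes the split was 149 higher and 176 lower here, 108 and 230 with a common median, and 193 and 146 with spike-in scaling.

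**Figure D2:**
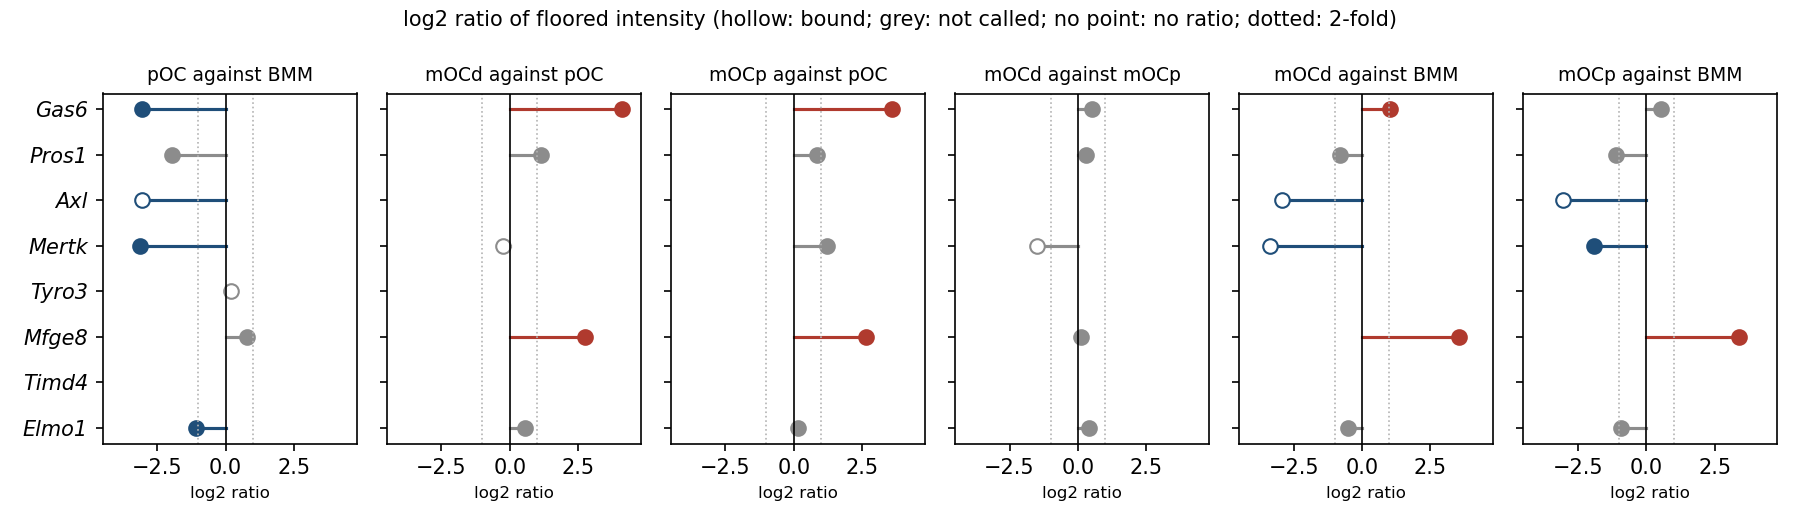
log2 ratio of the 8 genes in the 6 comparisons, on a linear axis, first-named group over second. Red marks a gene called higher, blue called lower and grey not called; hollow points are lower bounds, a missing point means no ratio, and dotted lines mark 2-fold. Gas6 and Mfge8 are called higher in mOCd and mOCp than in pOC, and no gene is called between mOCd and mOCp.

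Set against BMM, the start of the course, the 8 genes fell into separate patterns in the mature cultures. Mfge8 was 11.6-fold higher in mOCd and 10.6-fold higher in mOCp than in BMM. Axl was at least 7.67-fold lower in mOCd and at least 8.19-fold lower in mOCp, calls that ended when its probe sets were averaged. Mertk was at least 10.4-fold lower in mOCd and 3.72-fold lower in mOCp than in BMM. Gas6 was 2.05-fold higher in mOCd than in BMM, just past the 2-fold limit, and this call was lost with median, quantile or spike-in scaling. On plastic Gas6 read 1072.4 in mOCp and 739.8 in BMM, a ratio of 1.45-fold that was not called.

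For mOCd against BMM this gave 2 genes higher and 2 lower of 5 eligible, beside 18.8% higher and 20.3% lower among all 7537 eligible genes. For mOCp against BMM it gave 1 higher and 2 lower of 5, beside 16.9% and 19.4% among 7459. Elmo1 read 233.0 in mOCd and 174.6 in mOCp, against 334.5 in BMM, and was not called in either. Its second probe set was 3.07-fold lower in mOCd and 2.42-fold lower in mOCp than in BMM. Pros1 read 44.1 in mOCd and 36.2 in mOCp, against 78.1 in BMM. Over all genes the split for mOCd against BMM was 1419 higher and 1532 lower, and a common median gave 1051 and 2076. For mOCp against BMM it was 1258 higher and 1445 lower, with 998 and 1859 under a common median and 957 and 1956 under spike-in scaling.

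Likeness to Gas6 was measured as the root mean square difference between log2 intensities, floored and centred on each gene's mean over the 4 arrays, across 13071 other measured genes. The 5 most similar genes were Pfkfb3, an enzyme that stimulates glycolysis (0.60), Prkcb, a protein kinase C (0.61), Mical1, an actin-oxidising enzyme (0.65), Paqr4, a membrane protein (0.67), and P4ha2, a subunit of collagen prolyl 4-hydroxylase (0.68). Pfkfb3 read 67.7 in BMM, 23.0 in pOC, 158.9 in mOCd and 116.2 in mOCp. Prkcb read 424.5 in BMM, 110.9 in pOC, 583.0 in mOCd and 730.5 in mOCp. All 5 had their lowest value in pOC, but Gas6 went deeper, to -2.69 relative to its mean, against -1.55 to -1.76 for the 5. The 5 were picked for likeness to Gas6, and Gas6 for its dip. Neither the shared low value nor the greater depth of Gas6 is therefore a result.

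Among the pathway genes Pros1 stood nearest to Gas6, at rank 419 of 13071 with a difference of 1.22. Mfge8 ranked 1702, Elmo1 1861, Tyro3 5750, Mertk 10146 and Axl 10790. The last 3 ranks depend on the floor. Tyro3 exceeded it in pOC alone and Axl in BMM alone, and Mertk lay under it in mOCd. Over all 18193 genes, 58 were called lower in pOC than in BMM and higher in both mature cultures than in pOC, and 58 took the opposite course. Gas6 was the only one of the 8 genes among the 58 that dipped, and by the smallest of its 3 ratios it ranked 1, but it was chosen for this dip. Apoe, a lipid carrier, and the list genes Tgm2 and Vav3 also dipped. The dip rests on 1 pOC array.

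**Figure D3:**
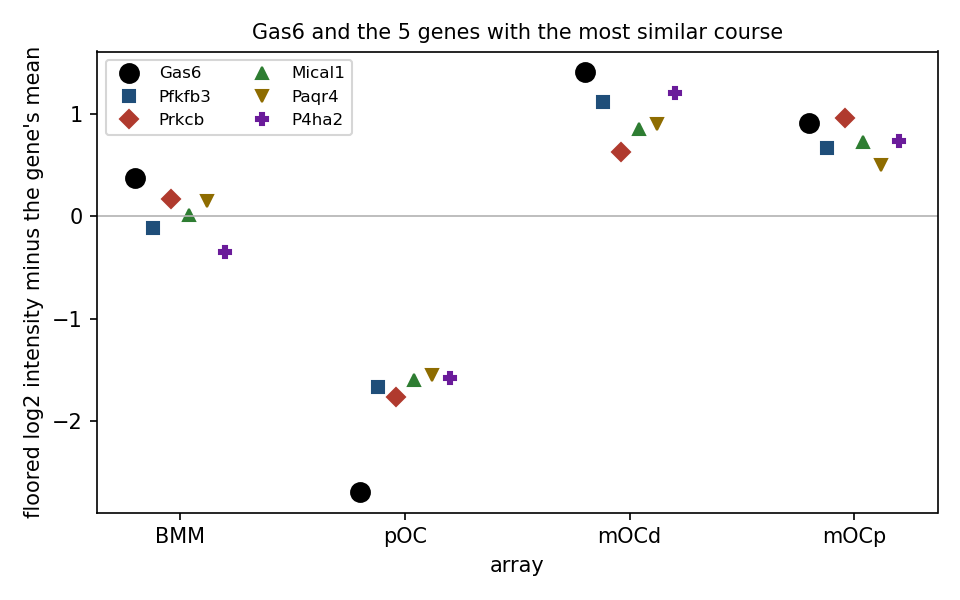
Floored log2 intensity of Gas6 and the 5 genes with the most similar course, each minus its own mean over the 4 arrays, in BMM, pOC, mOCd and mOCp. Each symbol is 1 gene on 1 array, set side by side for legibility. All 6 are lowest in pOC, with Gas6 at -2.69, which follows from how they were chosen.

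The wider pathway was described with 5 lists holding 100 genes in all, of which 95 were named by a probe set and 86 measured. In pOC against BMM, 9 of 70 eligible genes were called higher and 31 lower, where 11.1% and 13.2% of all eligible genes were. The other phosphatidylserine receptors and bridges had 12 of 19 eligible called lower and 2 higher, and a median log2 ratio of -1.33 against 0.17 over all measured genes. Stab1, a scavenger receptor that binds phosphatidylserine, read 73.3 in pOC and 777.7 in BMM. Cd300lf, a phosphatidylserine receptor of myeloid cells, read 19.0 in pOC and 170.0 in BMM. Cd36, a scavenger receptor, was 10.2-fold lower in pOC, and the complement bridges C1qa, C1qb and C1qc were 80.5-fold, 31.4-fold and 41.2-fold lower. The 6 macrophage markers called lower in pOC moved with this list, and their part in it was not tested.

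The integrins that take up Mfge8-coated cells split. Itgav, the alpha v subunit, read 3992.6 in pOC and 1592.8 in BMM, 2.51-fold higher. Itgb3, the beta 3 subunit that is also an osteoclast marker, read 92.1 in pOC and 1.0 in BMM, at least 7.25-fold higher. Itgb5, the beta 5 subunit, read 108.8 in pOC and 662.7 in BMM, 6.09-fold lower. Beta 3 thus read higher and beta 5 lower in pOC than in BMM. In the mature cultures Itgb3 read 2939.3 in mOCd and 480.8 in mOCp, 31.9-fold and 5.22-fold higher than in pOC, and it was the only gene of the lists called higher in mOCd than in mOCp, by 6.11-fold. Itgb5 read 93.4 in mOCd and 114.1 in mOCp and was not called against pOC.

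The engulfment machinery, where Elmo1 acts, had 4 genes called higher and 6 lower of 20 eligible in pOC against BMM (11.1% and 13.2% of all eligible genes). Dock5, a Rac activator with a known role in osteoclasts, was 8.06-fold higher, at 443.9 in pOC and 55.1 in BMM. Dock2, the Rac activator of leukocytes, was 6.01-fold lower, at 126.1 in pOC and 757.8 in BMM. Dock1, the classical Elmo1 partner, was 2.27-fold lower and Elmo2 2.65-fold lower. The tyrosine kinase Src was at least 16.0-fold higher and its substrate Bcar1 at least 6.98-fold higher, and Rac2 was 2.47-fold higher. Cybb, the NADPH oxidase subunit, was 2.79-fold lower in pOC than in BMM.

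In maturation this list had 4 genes called higher and 0 lower of 18 eligible in mOCd against pOC (10.8% and 12.3% of all eligible genes). In mOCp against pOC it had 3 higher and 0 lower of 18 (8.8% and 11.4% of all). Map1lc3a, a protein conjugated to autophagosome and phagosome membranes, read 3898.5 in mOCd and 2975.8 in mOCp, against 297.6 in pOC, ratios of 13.1-fold and 10.0-fold. Vav3, an activator of Rac needed for osteoclast function in mice, was 2.46-fold higher in mOCd and 2.34-fold higher in mOCp than in pOC. Dock1 read 24.1 in mOCd, 7.27-fold lower than the 175.1 in BMM.

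Genes for TAM signalling, receptor shedding and vitamin K carboxylation were called mainly against BMM. Of 10 eligible genes 0 were called higher and 4 lower in mOCd against BMM, and of 11 eligible 1 was called higher and 3 lower in mOCp against BMM, beside the 18.8% and 20.3%, and 16.9% and 19.4%, of all eligible genes. Of 11 eligible genes, 0 were called in mOCd against pOC, 0 in mOCp against pOC and 0 in mOCd against mOCp. In pOC against BMM 1 of 11 was called higher and 1 lower: Socs3, a feedback inhibitor of cytokine signalling, was 8.21-fold higher and Pik3cg, a phosphoinositide 3-kinase subunit, 3.34-fold lower. Adam10 and Adam17, the proteases that shed TAM receptors, were lower in mature cultures than in BMM. Adam10 was 2.90-fold lower in mOCd and 2.31-fold lower in mOCp. Adam17 was 2.37-fold lower in mOCd and 2.02-fold lower in mOCp, the latter just past the 2-fold limit. Both already read lower in pOC than in BMM without a call, Adam10 at 981.6 against 1849.5 and Adam17 at 574.9 against 997.7. Named although not called, Ggcx, the carboxylase that makes Gas6 and protein S active, read 37.8 in BMM, 31.8 in pOC, 34.5 in mOCd and 25.4 in mOCp. Vkorc1, which recycles vitamin K, read 522.6 in BMM, 567.2 in pOC, 301.0 in mOCd and 334.0 in mOCp, and it was not called in any comparison either.

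The list of find-me and do-not-eat-me genes holds mostly receptors that phagocytes use to sense such signals. Of 9 eligible genes, 7 were called lower in pOC than in BMM and 1 higher (13.2% and 11.1% of all eligible genes), with a median log2 ratio of -1.75. The 6 of 9 macrophage markers called lower, of which Cx3cr1 is 1, moved with it, and their part was not tested. In maturation 0 of 5 eligible genes were called higher and 1 lower in mOCd against pOC (10.8% and 12.3% of all eligible genes). In mOCp against pOC 1 of 5 was called higher and 0 lower (8.8% and 11.4% of all). Cx3cr1, the receptor of fractalkine and also a macrophage marker, was 24.5-fold lower in pOC than in BMM. P2ry6, a receptor for the nucleotide UDP, was 9.01-fold lower, at 145.6 in pOC and 1312.3 in BMM, and 2.45-fold lower again in mOCd than in pOC. Xkr8, a scramblase that exposes phosphatidylserine, was 2.59-fold higher in pOC.

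Among genes of digestion and nuclear receptors after uptake, 5 of 11 eligible were called lower and 1 higher in pOC against BMM, beside 13.2% and 11.1% of all eligible genes. Maf, a macrophage transcription factor, was 17.9-fold lower in pOC than in BMM, and Pparg, a lipid-sensing nuclear receptor, at least 6.10-fold lower. Apoe dipped in pOC as Gas6 did but stayed highest in BMM, at 1555.2 in BMM, 192.8 in pOC, 962.1 in mOCd and 1052.5 in mOCp. Tgm2, a transglutaminase involved in uptake of dying cells, also dipped, at 1220.5 in BMM, 471.9 in pOC, 1591.1 in mOCd and 1961.6 in mOCp. In maturation, 3 of 9 eligible genes were called higher and 1 lower in mOCd against pOC (10.8% and 12.3% of all eligible genes). For mOCp against pOC, 3 of 10 were called higher and 0 lower (8.8% and 11.4% of all).

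Over all 5 lists, 9 genes were called higher and 3 lower of 57 eligible in mOCd against pOC (10.8% and 12.3% of all eligible genes). In mOCp against pOC 12 were called higher and 0 lower of 62 (8.8% and 11.4% of all). Spike-in scaling, however, gave 5 higher and 7 lower for mOCd and 7 higher and 3 lower for mOCp. The phosphatidylserine receptors and bridges contributed 2 higher and 1 lower of 14 eligible in mOCd and 5 higher and 0 lower of 18 in mOCp. Beside these stand the same shares of all eligible genes. Scarf1, a scavenger receptor for dying cells, was 4.38-fold higher in mOCd and 2.92-fold higher in mOCp than in pOC. C1qa, C1qb and C1qc were 2.60-fold, 2.51-fold and 2.11-fold higher in mOCp than in pOC. In that comparison the macrophage markers Adgre1 and Cd14 were 3.73-fold and 3.40-fold higher too. In mOCd against mOCp, 1 list gene was called higher and 9 lower of 62 eligible (2.15% and 2.55% of all eligible genes), and the lower ones included the 3 C1q genes, Stab1, Dock2 and Cybb. The macrophage markers Adgre1, Msr1 and Itgam were also called lower in mOCd than in mOCp, and the part of these markers in either comparison was not tested. Against BMM, 11 genes were called higher and 30 lower of 70 eligible in mOCd, beside 18.8% and 20.3% of all eligible genes. For mOCp against BMM, 12 were called higher and 26 lower of 71, beside 16.9% and 19.4% of all.

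**Figure D4:**
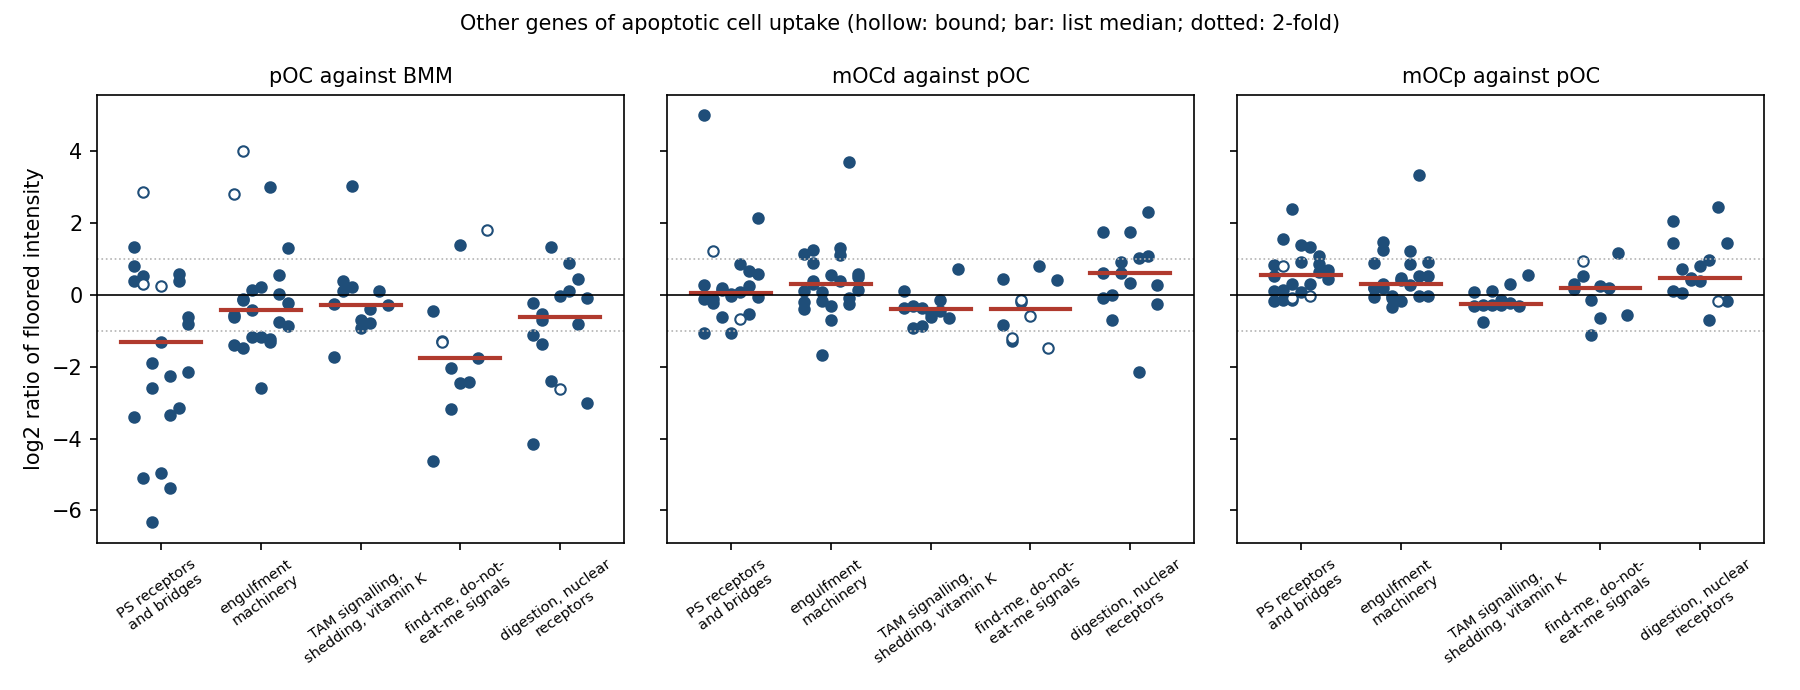
log2 ratio of the measured genes of 5 pathway lists in pOC against BMM, mOCd against pOC and mOCp against pOC, on a linear axis. Each point is 1 gene, hollow points are lower bounds, red bars are list medians and dotted lines mark 2-fold; the median of phosphatidylserine receptors and bridges lies at -1.33 in pOC against BMM.

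Markers of the cells a marrow culture can hold were summed on each array. Macrophage markers summed to 21543.3 in BMM, 11778.7 in pOC, 16670.1 in mOCd and 20049.0 in mOCp, so their sum was lowest in pOC. The sum leans on its brightest genes, Csf1r at 7644.1 in mOCd and Cd68 at 8622.9 in mOCp. The median log2 ratio of the 9 markers to pOC was -0.82 in mOCd and 0.55 in mOCp, where Gas6 had 4.10 and 3.60. The part of the macrophage markers in the Gas6 result was not tested. Adgre1, a macrophage surface marker, read 1581.9 in BMM, 319.6 in pOC, 491.4 in mOCd and 1191.3 in mOCp. Of the 9 markers, 3 of 6 eligible (Adgre1, Msr1 and Itgam) were called lower in mOCd than in mOCp, as Mertk also read lower there. Osteoclast markers summed to 250.6 in BMM, 32519.8 in pOC, 51729.0 in mOCd and 50165.5 in mOCp.

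Stromal and osteoblast markers summed to 77.5 in BMM, 303.1 in pOC, 266.4 in mOCd and 130.5 in mOCp. Of 11 named, 1 exceeded the floor in BMM (Col1a2, at 18.8), 3 in pOC, 5 in mOCd and 2 in mOCp. Dcn was the brightest in the last 3, at 196.1 in pOC, and Col1a1 and Col3a1 lay under the floor on all 4 arrays. The part of these cells in the Gas6 values was not tested. Neutrophil markers summed to 323.5 in BMM, 841.8 in pOC, 968.6 in mOCd and 1886.1 in mOCp. Megakaryocyte markers summed to between 1360.8 and 2571.4, nearly all of it from Pf4, which was 2064.2 in BMM. Endothelial markers summed to at most 69.8, dendritic to at most 166.1, T and NK cell to at most 41.8, B cell to at most 32.1 and erythroid to at most 29.5 on any array.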

How the data were processed

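The deposited values were signal intensities, 1 per probe set on each of 4 arrays, which the submitters' processing notes credit to MAS5 (version not given in the sources used here). The authors had brought each array to a common trimmed mean (2% cut at each end), which removes any difference in total mRNA. Of 45101 probe sets, 64 were controls, 34945 carried 1 gene symbol in a platform annotation dated 2016, 932 carried several and 9160 none. The groups are the 4 labelled stages, and the 6 comparisons are log2 ratios of floored intensities, with no test. The members, the 5 pathway lists and the 10 marker lists were chosen with earlier results of these data known. Named are all members, a selection of the list genes that were called, some markers, and the 5 genes most like Gas6; Ggcx and Vkorc1, not called, were chosen after their values were seen. Alternatives were other floors (percentiles 40 and 60), median, quantile, cyclic loess and spike-in scaling, other probe set rules, a 1.5-fold limit and no brightness rule. Spike-in scaling made control probe sets equal in mean log2 signal between arrays, and it is not read as a measure of total mRNA. The calling step was tested on simulated data with much less noise than the disagreement between probe sets, and with large changes planted in bright genes only. That test says nothing of calls near the 2-fold limit or the floor. Python 3.11.15, numpy 2.4.6, pandas 2.3.3, R 4.3.3 and limma 3.58.1 (cyclic loess scaling only) were used.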

Additional observations from a re-analysis of the deposited data

Results flagged for a closer look

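With main probe sets and the deposited scaling, 5 genes had a ratio for both mOCd and mOCp against the same pOC array. Of these, Mertk alone went opposite ways in mOCd and mOCp. It read 10.4 in mOCd, under the floor, and 44.1 in mOCp, against 18.8 in pOC. The log2 ratio to pOC was at most -0.25 in mOCd and 1.23 in mOCp, a difference of -1.48 or beyond. The difference was not tested, since each culture has 1 array, and neither ratio was called. The mOCd bound lies within the disagreement between probe sets (SD 0.52) and has no value with a floor at percentile 60, and the mOCp ratio was 0.80 with spike-in scaling. Over the alternative settings the mOCd ratio against mOCp ranged from -2.07 to -0.76 on the log2 scale. The second Elmo1 probe set also went opposite ways against pOC, at log2 ratios of -0.12 in mOCd and 0.22 in mOCp. With spike-in scaling the main Elmo1 probe set did so too, at 0.22 in mOCd and -0.27 in mOCp.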

How the results depend on the processing

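No called ratio of the 8 genes changed sign under the alternatives, but spike-in scaling turned the split of list genes in mOCd against pOC to 5 higher and 7 lower, and that of all genes in pOC against BMM to 1034 higher and 789 lower. No paired analysis was possible because each group has 1 array. Averaging over probe sets moved the log2 ratio of Gas6 to -1.44 in pOC against BMM, 2.51 in mOCd against pOC and 1.82 in mOCp against pOC, since its dimmer probe set lies mostly under the floor, and it left 2 genes called in pOC against BMM, Gas6 and Mertk. Spike-in controls were brighter than in pOC by 0.17 in BMM, 0.35 in mOCd and 0.43 in mOCp on the log2 scale, and array medians differed from pOC by -0.19 in BMM, 0.12 in mOCd and 0.03 in mOCp. Spike-in scaling gave Gas6 3.17 in mOCp against pOC. Gas6 in mOCd against BMM, called at 1.03, ranged from 0.72 to 1.07. Elmo1 in pOC against BMM lost its call with spike-in scaling, and in mOCp against pOC, not called, it read -0.27 there. Leaving out probe sets with suffixed names left 1 gene called in mOCd against pOC and 1 in mOCp against pOC, because Mfge8 has no other. Without the brightness rule 1 gene, Mertk, was called in mOCd against mOCp, and 20 pathway genes in mOCd against pOC. A 1.5-fold limit called 18 pathway genes in mOCd against mOCp, 25 in mOCd against pOC and 24 in mOCp against pOC. It called 58.8% of all eligible genes in mOCd against BMM, 16.8% in mOCd against mOCp, 46.3% in mOCd against pOC, 57.0% in mOCp against BMM, 42.2% in mOCp against pOC and 44.3% in pOC against BMM. Of the recomputed Gas6 ratios and counts, 18 moved, as given here, and 210 stayed within the disagreement between probe sets or, for counts, within 1.5 times. For the other genes 17 ratios moved. The floor moved bounds of Axl, Mertk and Tyro3 (Axl in pOC against BMM was -2.33 with a floor at percentile 60, and -1.44 with probe sets averaged), and spike-in scaling lowered Pros1 to 0.41 and Mfge8 to 2.20 in mOCp against pOC. Signal near the floor limits Axl, Tyro3, Timd4 and the mOCd value of Mertk.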
